A study of Homo sapiens with 4 samples.

Results

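The genes described here are 33 genes of the hypoxia response, out of the 58735 genes listed in each of 4 RNA-seq libraries. They were taken by symbol, through GENCODE release 29 gene names, as the subunits of the hypoxia-inducible factors (HIF), the proteins that sense oxygen and control HIF, and HIF target genes outside glycolysis. All 33 symbols matched a single gene identifier. The libraries are labelled Huh7, an established line derived from a human liver cancer. In 2 of them a short hairpin targeted NME7 (shNME7), a gene for a nucleoside diphosphate kinase family member of the centrosome, and the other 2 carried a control hairpin (shCtrl). The comparison between them asks how transcript levels differ after NME7 knockdown. The sources used here do not give the vector, the target site of the hairpin, the number of clones, the time after knockdown or the oxygen level of the cultures, and no label names a low-oxygen treatment. The labels do not state separate cultures for the libraries of a group, and p-values then cover only the spread between libraries, which may be technical. In bulk RNA, fewer cells that express a gene and less of its RNA per cell cannot be told apart.

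HIF is a pair of an alpha subunit, HIF1A or EPAS1 (also called HIF-2 alpha), with the partner ARNT. When oxygen is present, the prolyl hydroxylases EGLN1, EGLN2 and EGLN3 mark the alpha subunits, VHL binds the marked protein, and the proteasome destroys it, while HIF1AN blocks its contact with coactivators. When oxygen falls, the alpha subunits persist, pair with ARNT and bind short DNA elements with the core ACGTG or GCGTG near genes for oxygen sensing, blood vessel growth, pH control, mitophagy and collagen assembly. Because this switch acts on protein, the level of HIF transcripts does not give the activity of HIF.

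The hepatocyte label did not match the transcripts. Of 10 markers of hepatocytes and hepatoma cells (ALB, AFP, APOA1, APOB, TTR, SERPINA1, HNF4A, GPC3, FGB and AHSG), 0 reached a mean of 1 FPKM (fragments per kilobase of exon, scaled to library size), and APOA1, APOB, GPC3 and FGB had 0 fragments in every library. Their summed level was between 0.0516 and 0.136 FPKM per library. A count of 0 allows up to 3 fragments, or 0.177 to 0.202 CPM (fragments scaled to library size alone), for counting error only. Of 5 fibroblast markers (COL1A1, COL3A1, DCN, LUM and PDGFRB) 4 reached a mean of 1 FPKM, PDGFRB only narrowly at 1.54. DCN did not, at 0.0311 to 0.0734 FPKM from 6 to 16 fragments per library. The 5 markers summed to 92.1 to 103 FPKM per library. Most of this sum was the collagen gene COL3A1, at 71.4 ± 6.31 FPKM in shCtrl and 75.9 ± 1.05 in shNME7 (SD, n = 2). Endothelial markers summed to 2.03 and 2.37 FPKM in shCtrl and 2.86 and 3.54 in shNME7, with KDR at 0 fragments in every library, and leukocyte markers to at most 0.250 FPKM. Most of the endothelial sum was CDH5. The libraries are called by their labels throughout, and the part of these markers in the results was not tested.

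The knockdown itself was visible. NME7 stood at 3.64 and 3.93 FPKM in the control libraries and at 0.835 and 0.626 FPKM with the hairpin against it, 5.18-fold lower. Its log2 difference of -1.47 (SE 0.17) had an adjusted p of 0.310 in limma-trend, and in limma-voom the value was -2.39 (SE 0.26) with an adjusted p of 0.000998. Libraries held 14877906 to 16991397 fragments. They also differed in their dependence on GC content: across 12857 tested genes, which are not independent replicates, the deviation from the gene mean correlated with GC at a Spearman rho of 0.26 in shCtrl 1, -0.63 in shCtrl 2, -0.38 in shNME7 1 and 0.67 in shNME7 2. Values were therefore also computed with a smooth trend on GC content and exon length removed from each library. As deposited, the SD over genes of the log2 difference between libraries was 0.323 within shCtrl and 0.363 within shNME7. Between groups it was 0.330 and 0.337 for shCtrl 1 against shNME7 1 and 2, and 0.324 and 0.437 for shCtrl 2. Libraries of a group thus differed about as much as most pairs between groups.

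The DNA element that HIF reads can be seen in the promoters of 4 target genes, chosen to show 2 genes that were lower in both shNME7 libraries (BHLHE40 and ANKRD37) beside 2 whose groups overlapped (CA9 and BNIP3). Each sequence is the 250 bases before the RefSeq start on GRCh38.p14, written 5′ to 3′ on the gene's strand, with ACGTG and GCGTG on either strand in capitals.
BHLHE40, chr3:4979187-4979436, plus strand: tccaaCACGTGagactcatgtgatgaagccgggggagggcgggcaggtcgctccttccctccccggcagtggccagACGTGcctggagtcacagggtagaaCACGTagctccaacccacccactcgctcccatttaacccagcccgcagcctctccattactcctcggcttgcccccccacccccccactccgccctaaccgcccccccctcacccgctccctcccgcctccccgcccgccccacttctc
ANKRD37, chr4:185396591-185396840, plus strand: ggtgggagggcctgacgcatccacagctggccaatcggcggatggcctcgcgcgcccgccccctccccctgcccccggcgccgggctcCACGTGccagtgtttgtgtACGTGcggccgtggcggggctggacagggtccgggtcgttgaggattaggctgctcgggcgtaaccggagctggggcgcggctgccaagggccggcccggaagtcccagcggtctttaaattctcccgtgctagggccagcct
CA9, chr9:35673678-35673927, plus strand: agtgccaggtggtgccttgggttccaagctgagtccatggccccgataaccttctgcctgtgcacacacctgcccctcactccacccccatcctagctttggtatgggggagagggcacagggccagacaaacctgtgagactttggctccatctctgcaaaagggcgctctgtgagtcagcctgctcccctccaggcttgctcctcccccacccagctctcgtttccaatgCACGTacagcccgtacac
BNIP3, chr10:131981924-131982173, minus strand: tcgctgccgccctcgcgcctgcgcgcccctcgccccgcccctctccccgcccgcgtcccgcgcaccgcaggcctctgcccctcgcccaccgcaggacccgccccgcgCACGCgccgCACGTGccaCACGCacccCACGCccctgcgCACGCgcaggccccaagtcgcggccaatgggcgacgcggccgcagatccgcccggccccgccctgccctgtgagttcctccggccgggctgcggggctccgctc
The capitals form 3 separate stretches in BHLHE40, 2 in ANKRD37, 1 in CA9 and 5 in BNIP3. The first stretch of BHLHE40 and of ANKRD37 and the second of BNIP3 contain CACGTG, which reads the same on both strands and also holds the E-box core, so it was matched once on each strand. The set of RefSeq promoters used here held 27 of the 33 members, with 36 starts in all. At least 1 of these motifs stood before 28 of the 36 starts (77.8%), against 43.2% of all 35116 promoters of that length, and ACGTG before 20 starts (55.6%) against 18.5% of all. The members were chosen as HIF targets and regulators, so this excess is no result of these libraries. Both motifs contain CG, and the part of promoter GC content in the excess was not tested. Of 9 members with an entry and lower values in both shNME7 libraries, 7 had a motif, and of 18 members with an entry and overlapping groups, 16 had. A match is a run of letters and not a measured binding site.

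Transcript levels of the members spanned a wide range. HIF1A, NDRG1 and BHLHE40 had means over the 4 libraries of at least 50 FPKM, 12 members lay between 20 and 50, 9 between 5 and 20, and 6 between 1 and 5. EGLN2, CA12 and BHLHE41 lay under 1 FPKM and were not tested in limma-trend. The 30 tested members had 68 to 13207 fragments per library. In the plot of levels by library most points of a gene lie close together, and the shNME7 points of NDRG1 and BHLHE40 stand clear to the left of the shCtrl points.

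**Figure D1:**
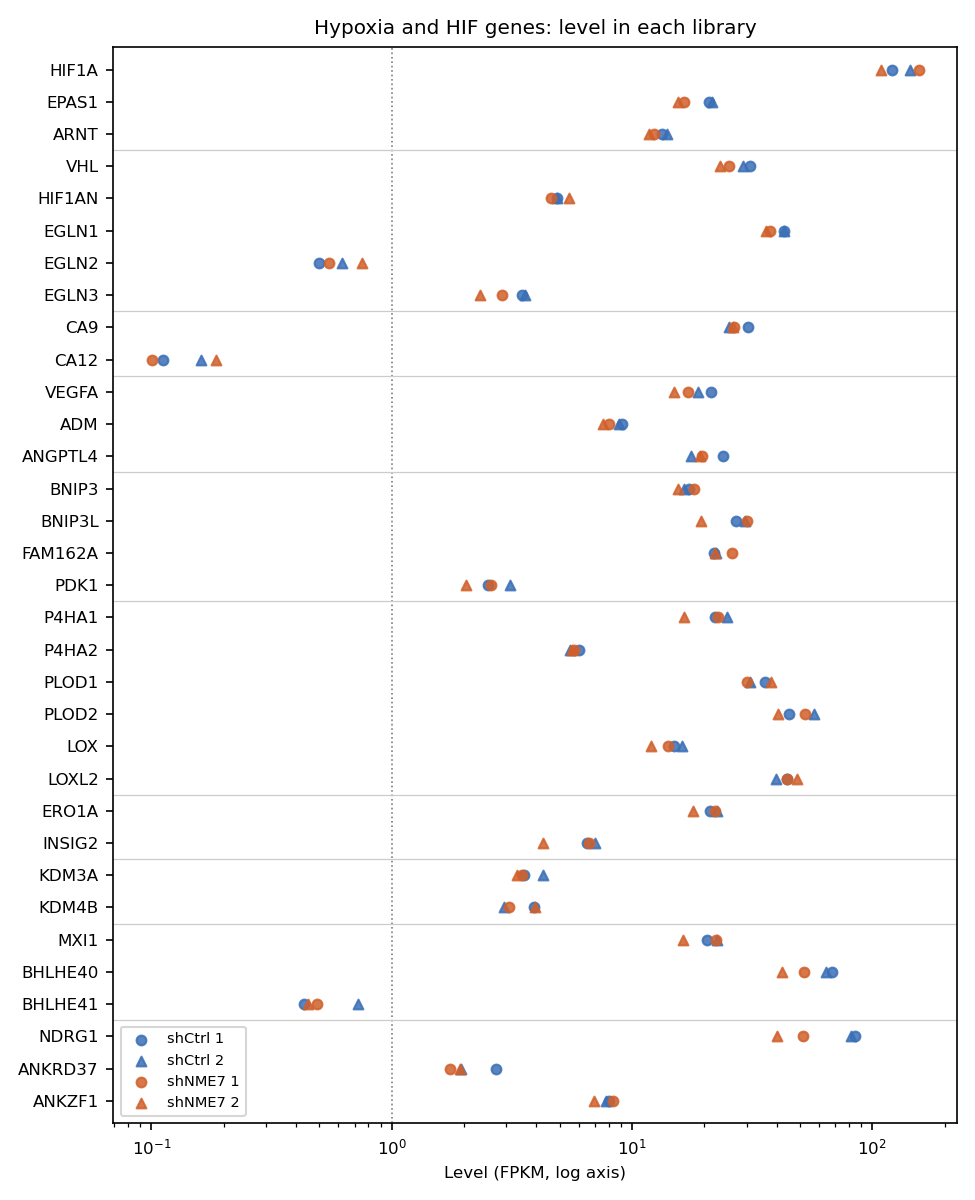
Level of each of the 33 members in each library, in FPKM on a log axis, grouped by role. Circles are replicate 1 and triangles replicate 2, and the dotted line marks 1 FPKM. NDRG1 stands at 84.5 and 81.4 FPKM in shCtrl and at 51.5 and 40.3 in shNME7.

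Most members were somewhat lower in shNME7, led by NDRG1, BHLHE40 and EPAS1, while HIF1A, BNIP3 and CA9 were nearly level. For 12 of the 30 tested members (40.0%) the shNME7 values were both under the lower shCtrl value, against 18.4% of all 12866 tested genes, and for 0 both lay above, against 17.8% of all genes. The groups overlapped for 18 tested members, and for 21 of all 33 with EGLN2, CA12 and BHLHE41. A lower mean was found for 25 of the 30 (83.3%), against 47.8% of all genes. The median log2 difference was -0.16, and 0.01 over all tested genes. These shares describe the list and test nothing, since the members were chosen with earlier results of these libraries known. Differences are on the log2(FPKM + 1) scale, which understates the change of low genes. In limma-trend 0 of the 30 passed an adjusted p of 0.05, as did 0 of all tested genes (0%). At an unadjusted p under 0.05 there were 3 members, all lower (NDRG1, BHLHE40 and EPAS1), against 6.68% of all genes at that p and 3.22% on the low side. limma-voom on the fragment numbers recovered from the FPKM values called 0 of 33 members, against 0.106% of 15112 genes, 0.0926% on the low side. At an unadjusted p under 0.05 it had 4 members, the same 3 and EGLN3, all lower, against 7.92% of all genes and 3.98% on the low side.

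**Figure D2:**
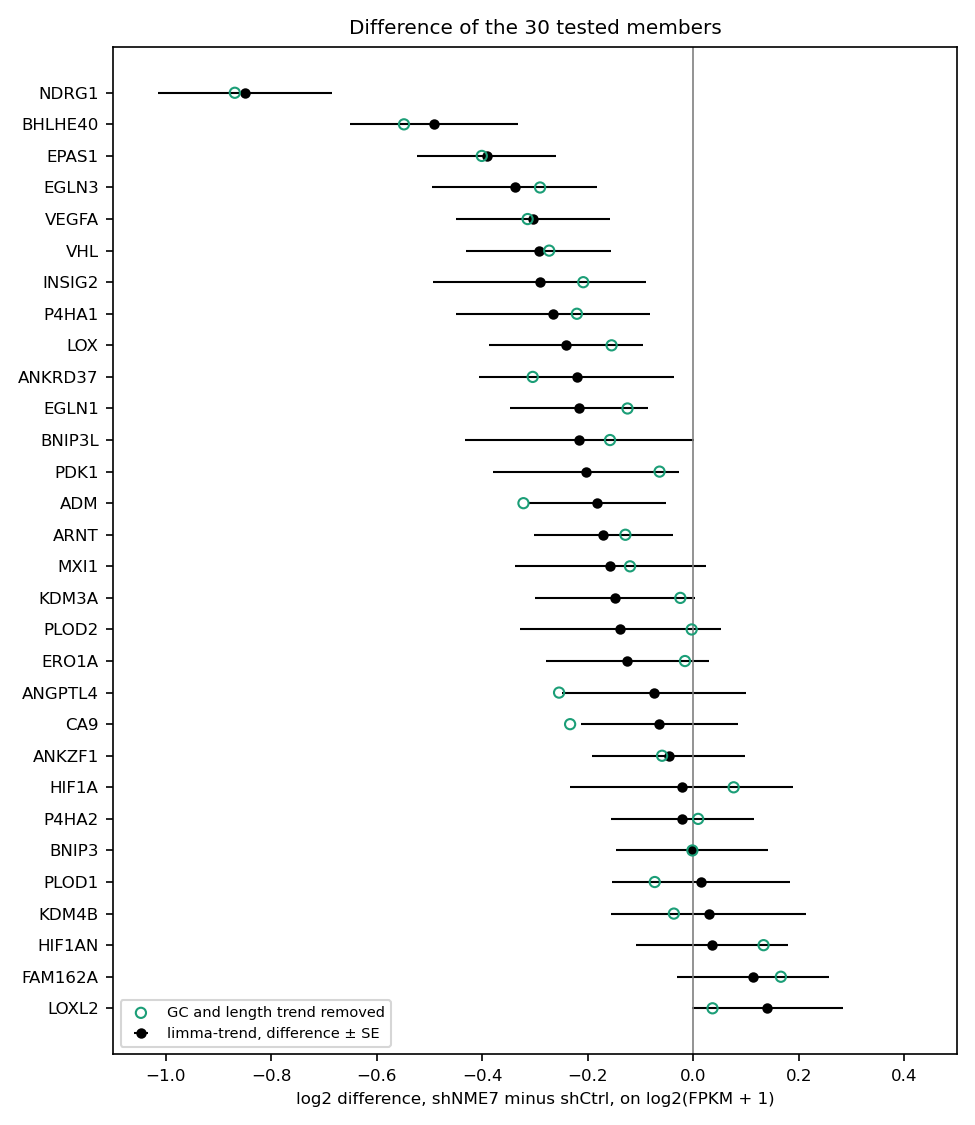
Difference between shNME7 and shCtrl for each of the 30 tested members. Filled points are the log2 difference with its standard error in limma-trend, and open circles the value with the GC and length trend removed. NDRG1 lies at -0.85 and LOXL2 at 0.14, the ends of the range.

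Among the HIF subunits, the 2 alpha genes differed in pattern. HIF1A (ENSG00000100644, chromosome 14, 61695513 to 61748259, plus strand, GRCh38), the alpha subunit found in most cells, had 121 and 144 FPKM in the control libraries 1 and 2, against 156 and 108 in shNME7 1 and 2. The highest and the lowest library were thus both shNME7. Its log2 difference was -0.02 (SE 0.21), and with the GC and length trend removed it was 0.08. EPAS1 (ENSG00000116016, chromosome 2, 46293667 to 46386703, plus strand), the alpha subunit best known from endothelium, kidney and liver, had 21.0 and 21.5 FPKM in shCtrl and, in shNME7, 16.5 and 15.5. Both shNME7 libraries were below both shCtrl libraries, by a factor of 1.33 between the means. The log2 difference of -0.39 (SE 0.13) had an adjusted p of 0.728 in limma-trend and did not pass. It ran from -0.44 to -0.35 over 11 alternatives.

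The constitutive partner ARNT measured 13.4 and 14.0 FPKM in shCtrl against 12.4 and 11.7 in shNME7, without overlap but with a log2 difference of only -0.17 (SE 0.13). FPKM is scaled to the length of all annotated exons of a gene, whether used in these cells or not. Ratios between genes therefore compare FPKM values and give relative abundance only roughly. HIF1A exceeded EPAS1 by a factor of 5.78 and 6.69 in the control libraries, against 9.46 and 7.01 in shNME7 1 and 2. The ratio was higher in both shNME7 libraries, with shNME7 2 close to shCtrl 2. HIF1A (38.9% GC) and EPAS1 (53.6% GC) differ in GC content, so the comparison was repeated after removal of the GC and length trend, an alternative chosen after seeing the data. HIF1A then exceeded EPAS1 on the log2 scale by 2.52 and 2.53 in shCtrl, against 3.03 and 2.98 in shNME7. The replicates of each group lay closer together than before. Because the removed trend was fitted to these same libraries, this closeness tests nothing. EPAS1 exceeded ARNT by a factor of 1.57 and 1.53 in shCtrl and 1.33 and 1.32 in shNME7.

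Of the genes that sense oxygen or degrade HIF, VHL, EGLN1 and EGLN3 were lower in both shNME7 libraries. VHL, the substrate receptor of the ubiquitin ligase that removes HIF alpha, was at 30.9 and 29.05 FPKM in shCtrl, against 25.4 and 23.1 in shNME7, a log2 difference of -0.29 (SE 0.14). EGLN1, the main HIF prolyl hydroxylase in most cells, had 42.9 and 43.1 FPKM in shCtrl and, in shNME7, 37.6 and 36.2. The SD was 0.105 FPKM in shCtrl and 0.971 in shNME7. The log2 difference of EGLN1 was -0.22 (SE 0.13), and -0.12 after removal of the GC and length trend. EGLN3, a hydroxylase that is itself a HIF target, measured 3.49 and 3.58 FPKM in shCtrl against 2.87 and 2.33 in shNME7. Its log2 difference was -0.34 (SE 0.16) in limma-trend and -0.46 (SE 0.20) in limma-voom, with an adjusted p of 0.593 in the latter. The FPKM value of EGLN1 was 12.03 to 12.3 times that of EGLN3 in shCtrl and 13.1 to 15.5 times in shNME7.

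HIF1AN, the asparaginyl hydroxylase that blocks coactivator binding, did not separate the groups, at 4.89 and 4.86 FPKM in shCtrl and 4.62 and 5.45 in shNME7. Its exons share 325 bases with NDUFB8 on the opposite strand, and the sources used here do not say whether counting used strand. EGLN2 was listed at 0.497 and 0.622 FPKM in shCtrl and 0.546 and 0.752 in shNME7, from 52 to 84 fragments. The read-through gene RAB4B-EGLN2 covers 30.6% of the EGLN2 exon length on the same strand and had 0 fragments in every library, and how fragments in shared exons were counted was not tested.

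Of the 3 genes for secreted factors, 0 passed the test, and VEGFA and ADM had lower values in both shNME7 libraries. VEGFA, the growth factor for blood vessels and a classic HIF target, was at 21.3 and 18.8 FPKM in shCtrl, against 17.1 and 15.0 in shNME7, 1.25-fold lower, with a log2 difference of -0.30 (SE 0.15). ADM, which encodes the vessel-dilating peptide adrenomedullin, had 9.11 and 8.85 FPKM in shCtrl and, in shNME7, 8.03 and 7.56. The groups did not overlap for either gene. ANGPTL4, an inhibitor of lipoprotein lipase, stood at 23.8 and 17.6 FPKM in shCtrl, and both shNME7 values, 19.6 and 19.2, lay between these. Without shCtrl 1 the log2 difference of ANGPTL4 was 0.14. With the GC and length trend removed the difference of ADM was -0.32 and that of ANGPTL4 -0.25, against -0.18 and -0.07 without. Both genes are rich in GC (58.7% and 63.5%).

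CA9, a membrane carbonic anhydrase that regulates pH and a sensitive marker of HIF1 activity, was well expressed and nearly level. It measured 30.4 and 25.3 FPKM in shCtrl against 26.6 and 26.4 in shNME7, so both shNME7 values lay inside the shCtrl range. The log2 difference of CA9 was -0.06 (SE 0.15). Without shCtrl 1 it was 0.06, and with the GC and length trend removed -0.23, where both shNME7 libraries came to lie below both shCtrl libraries. The gene ARHGEF39 covers 38.5% of the CA9 exon length on the opposite strand, with 348 to 379 fragments of its own per library. CA12, a related enzyme, had only 11 to 23 fragments per library.

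The mitochondrial targets showed no common direction. BNIP3, a receptor for the removal of mitochondria, was at 17.2 and 16.4 FPKM in shCtrl, against 18.2 and 15.5 in shNME7, a log2 difference of -0.00275 (SE 0.14). Its many processed pseudogenes can share reads with it, and none had over 12 fragments in a library. BNIP3L, a related mitophagy receptor, had 27.2 and 29.5 FPKM in shCtrl and, in shNME7, 30.1 and 19.4, so the low mean came from shNME7 2 alone. PDK1, the kinase that shuts pyruvate out of the mitochondrial citric acid cycle, measured 2.51 and 3.12 FPKM in shCtrl against 2.58 and 2.04 in shNME7. FAM162A, a HIF target of the mitochondrial membrane, was at 21.95 and 22.3 FPKM in shCtrl and 26.1 and 22.2 in shNME7. In all 4 genes the groups overlapped.

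Collagen-modifying enzymes were likewise mixed. P4HA1 and P4HA2 encode prolyl hydroxylase subunits that stabilise the collagen helix. P4HA1 was at 22.2 and 24.9 FPKM in shCtrl, against 22.7 and 16.5 in shNME7, and P4HA2 within 5.51 and 6.05 FPKM in all libraries. The lysyl hydroxylase PLOD2 had 45.1 and 57.1 FPKM in shCtrl and, in shNME7, 52.4 and 40.5. Its relative PLOD1 had 35.9 and 31.1 FPKM in shCtrl and 30.1 and 38.0 in shNME7, and was thus highest in shNME7 2, where PLOD2 was lowest. PLOD2 exceeded PLOD1 by a factor of 1.83 in shCtrl 2 and 1.74 in shNME7 1, and of 1.26 in shCtrl 1 and 1.07 in shNME7 2. The GC content is 36.1% in PLOD2 and 58.1% in PLOD1. After removal of the GC and length trend the log2 difference of PLOD2 over PLOD1 was 0.39 and 0.56 in shCtrl, against 0.63 and 0.46 in shNME7. Before removal the range was wider, 0.0896 to 0.85. The trend was fitted to these same libraries, and the part of GC content in the pattern was not tested. LOX, which crosslinks collagen outside the cell, was lower in both shNME7 libraries, at 14.9 and 16.2 FPKM in shCtrl and 14.1 and 11.96 in shNME7. The log2 difference of LOX was -0.24 (SE 0.15), and -0.15 after removal of the GC and length trend. LOXL2, a related crosslinking enzyme, had the largest positive difference of the 30 members tested in limma-trend, 0.14 (SE 0.14), at 44.4 and 39.9 FPKM in shCtrl and 44.3 and 48.8 in shNME7.

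For the endoplasmic reticulum oxidase ERO1A and the sterol sensor partner INSIG2, shNME7 2 was the lowest library, as it was for 21 of the 30 tested members in all. ERO1A measured 21.1 and 22.7 FPKM in shCtrl against 22.2 and 18.0 in shNME7. INSIG2 was at 6.49 and 7.02 FPKM in shCtrl and 6.64 and 4.25 in shNME7. Neither gene separated the groups. Of the histone demethylases, KDM3A was lower in both shNME7 libraries by a small margin, at 3.54 and 4.24 FPKM in shCtrl and 3.48 and 3.32 in shNME7. The log2 difference of KDM3A was -0.15, and -0.02 after removal of the GC and length trend. KDM4B overlapped, at 3.91 and 2.94 FPKM in shCtrl and 3.07 and 3.96 in shNME7.

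BHLHE40 had the second largest difference of all members. It encodes a transcription repressor known for roles in hypoxia and the circadian clock, and lies on chromosome 3 (ENSG00000134107, 4979116 to 4985323, plus strand). The level was 68.1 and 64.0 FPKM in the control libraries, against 51.9 and 41.9 in shNME7 1 and 2, 1.41-fold lower with a clear gap between the groups. The log2 difference of -0.49 (SE 0.16) had an adjusted p of 0.728 in limma-trend (0.494 in limma-voom) and did not pass. Over 11 alternatives the value ran from -0.64 to -0.34. Without shNME7 1 BHLHE40 passed in limma-voom but not in limma-trend. More of all tested genes also passed in that limma-voom fit than with all libraries. Without any other single library BHLHE40 passed in neither test. MXI1, an antagonist of MYC, was at 20.5 and 22.6 FPKM in shCtrl, against 22.5 and 16.4 in shNME7, and overlapped. BHLHE41, the paralog of BHLHE40, was hardly expressed, with 27 to 46 fragments per library.

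NDRG1 showed the largest difference of the 33 genes. It is a stress-responsive gene strongly induced by hypoxia and is also known as a suppressor of metastasis. NDRG1 (ENSG00000104419) lies on chromosome 8 (133237171 to 133302022, minus strand). Its 13207 and 12892 fragments in the control libraries compared with 7605 and 6725 in shNME7 1 and 2. In FPKM these were 84.5 and 81.4 against 51.5 and 40.3, so that both shNME7 libraries were far below both shCtrl libraries, 1.81-fold between the means of 82.9 ± 2.21 and 45.9 ± 7.92 (SD, n = 2). On the log2 scale limma-trend gave -0.85 (SE 0.17, adjusted p 0.505) and limma-voom -0.86 (SE 0.16, adjusted p 0.0617). Neither passed, and NDRG1 was the member nearest to the threshold in both. With the library totals in place of the scale implied by the deposited values, an alternative chosen after seeing the data, limma-voom gave an adjusted p of 0.0465. Without shNME7 1 NDRG1 passed in both tests, and without any other single library it passed in neither. A group of 1 library has no spread of its own. More of all tested genes also passed without shNME7 1 than with all libraries. The NDRG1 difference ran from -1.02 to -0.68 over 11 alternatives and was -0.87 with the GC and length trend removed.

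The other 2 targets were low or level. ANKRD37, a small ankyrin repeat gene that responds strongly to HIF1, had 2.70 and 1.95 FPKM in shCtrl and, in shNME7, 1.75 and 1.92, from 68 to 111 fragments per library. Its groups were apart only by the narrow gap between 1.95 and 1.92 FPKM. The gene UFSP2 covers 35.2% of the ANKRD37 exon length on the opposite strand and had 139 to 197 fragments. ANKZF1, a factor that releases stalled nascent chains from ribosomes, overlapped at 8.03 and 7.82 FPKM in shCtrl and 8.37 and 6.97 in shNME7.

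The 4 libraries did not contribute equally. For 21 of the 30 tested members the lowest value was in shNME7 2, for 3 in shNME7 1, for 5 in shCtrl 2 and for 1 in shCtrl 1. The median deviation of the 30 members from their gene means was 0.07 in shCtrl 1, 0.11 in shCtrl 2, -0.03 in shNME7 1 and -0.17 in shNME7 2, in log2. Over all tested genes these medians lay within 0.01 of 0. Without shNME7 2 the median difference of the members was -0.08, with 21 of 30 lower, and without shNME7 1 it was -0.26, with 25 of 30 lower. shNME7 2 was also the library with the strongest positive dependence on GC content. With the GC and length trend removed, the median deviation of shNME7 2 was -0.15 and that of shNME7 1 was 0.02, so only shNME7 2 was then on the low side. The part of GC content in these deviations was not tested.

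**Figure D3:**
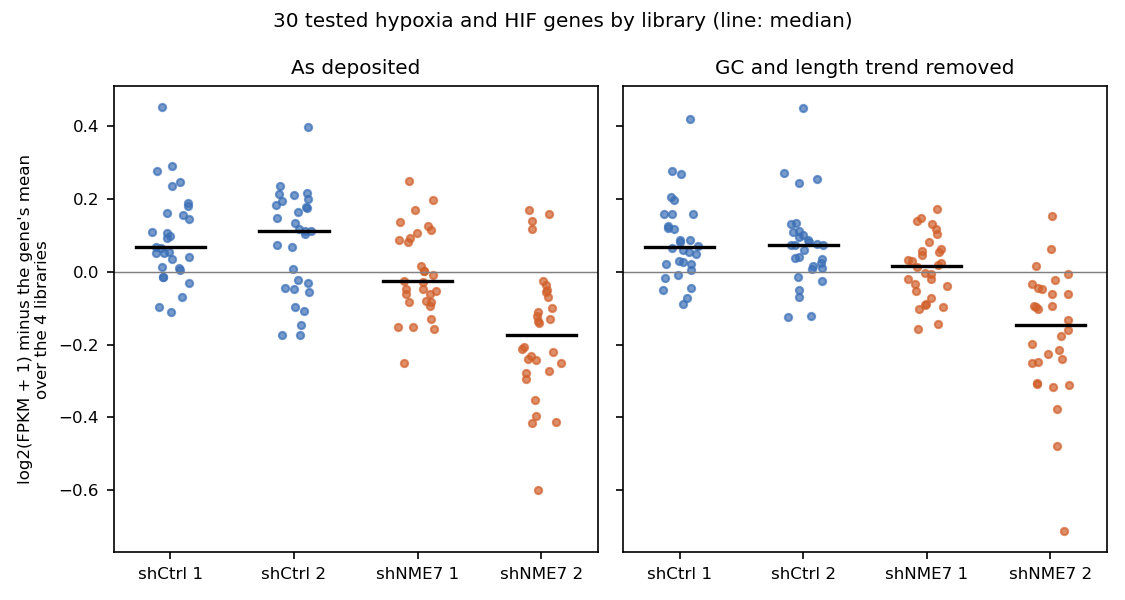
Deviation of each of the 30 tested members from its own mean over the 4 libraries, on the log2(FPKM + 1) scale, as deposited (left) and with the GC and length trend removed (right). Each point is a gene and each line a median, which is -0.17 in shNME7 2 on the left and -0.15 on the right.

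The median GC content of the 30 tested members was 48.2%, against 48.9% for all tested genes. The shNME7 against shCtrl difference followed GC content over all tested genes (Spearman rho 0.42 across genes), and over the 30 members rho was 0.11. Genes of one library share its depth and composition, so these values are descriptions. After removal of the trend 16 of the 30 members had shNME7 values that were both under the lower shCtrl value, against 23.3% of all genes, and 1, FAM162A, had both above, against 23.9%. Of the 12 members that were apart before, 11 remained so and KDM3A did not. CA9, ANGPTL4, P4HA1, PLOD1 and INSIG2 joined them. The median difference of the members was then -0.13, and limma-trend called 0 of them.

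**Figure D4:**
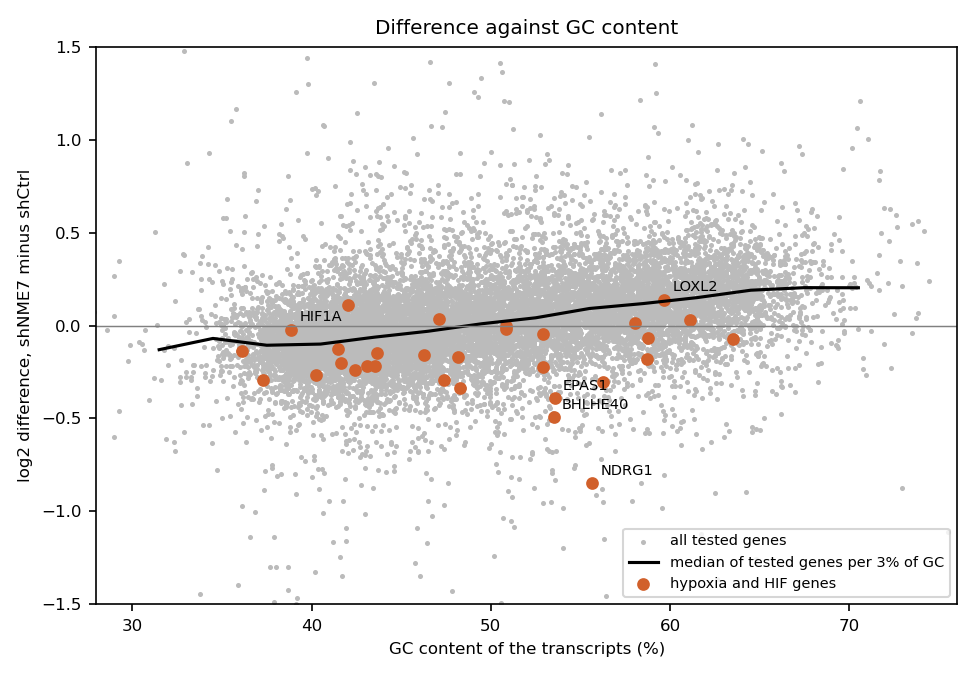
Difference between shNME7 and shCtrl in log2 against the GC content of a gene's transcripts in percent. Grey points are tested genes, the black line their median per 3% of GC (bins of at least 20 genes), and orange points the 30 tested members; 33 of 12857 genes lie outside the axes. NDRG1, BHLHE40 and EPAS1 lie well below the line.

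Other genes of the pathway were taken from lists drawn up with the members, also with earlier results of these libraries known. Their shares likewise describe the lists and test nothing. Of 13 further components of HIF control, 12 were tested, 8 of them lower on average in shNME7 and 4 higher, with 5 apart on the low side (ARNT2, CITED2, CREBBP, SIAH1 and SIAH2) and 2 on the high side (ELOC and RBX1). The shares over all tested genes were 18.4% and 17.8%. In limma-trend and limma-voom 0 passed, with 0 and 4 at an unadjusted p under 0.05, against 6.68% and 7.92% of all genes. ELOB, a subunit of the VHL ubiquitin ligase, measured 99.6 and 73.4 FPKM in shCtrl against 93.4 and 153 in shNME7. SIAH2, a ubiquitin ligase that removes EGLN proteins, was at 24.7 and 22.1 FPKM in shCtrl and 19.5 and 16.8 in shNME7. The coactivator gene CREBBP was at 5.57 and 6.06 FPKM in shCtrl, against 3.99 and 4.92 in shNME7. HIF3A had 0 fragments in every library.

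Among 33 other hypoxia-induced genes outside glycolysis, 26 were tested, with 19 lower and 7 higher means. The shNME7 values were both under the lower shCtrl value for 15 of the 26 (57.7%, against 18.4% of all genes) and both over the higher one for EDN1 alone (against 17.8%). The median difference was -0.18. At an unadjusted p under 0.05 there were 7 of 26 in limma-trend and 8 of 28 in limma-voom, against 6.68% and 7.92% of all genes. limma-voom called 1 of the 28 it tested, the stanniocalcin gene STC2, and limma-trend called 0. STC2, which is also a target of the stress factor ATF4, had 22.2 and 19.3 FPKM in shCtrl and, in shNME7, 11.5 and 9.003. The log2 difference in limma-voom was -1.02 (SE 0.18) with an adjusted p of 0.0378. It did not pass without shCtrl 1 (-0.92, adjusted p 0.127 in limma-voom) or with the GC and length trend removed (-1.05, adjusted p 0.112). STC2 passed in limma-voom without shCtrl 2, without shNME7 1 and without shNME7 2, though a group of 1 library has no spread of its own. Of 19 glycolytic genes induced by hypoxia 9 were lower on average and 10 higher, with 4 apart on the low side (SLC2A1, SLC2A3, GPI and GAPDH) and 4 on the high side (PGK1, PGAM1, ENO1 and ENO2). These counts are near the 18.4% and 17.8% of all genes, and the median difference was 0.01. Among them the glucose transporter gene SLC2A1 measured 29.8 and 27.7 FPKM in shCtrl against 21.97 and 24.3 in shNME7. The glycolytic enzyme gene GAPDH had 932 and 906 FPKM against 726 and 815, and PGAM1, of a later step, 180 and 175 against 191 and 218.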

How the data were processed

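RNA-seq was made from 4 libraries, grouped and numbered by their titles. The authors deposited FPKM values for 58735 genes per library, per the file headers. HISAT2 2.0.5 and the build hg18 are listed in the submitters' processing notes while the sources used here do not give the counter, its strand setting or the annotation. All gene identifiers occur in GENCODE release 29 (GRCh38), which gave names, exon lengths, GC content and coordinates.

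FPKM times exon length gave whole fragments (within 0.01) for 100% of values above 0 in each library. The exon lengths behind the deposited values thus match GENCODE release 29, an annotation of GRCh38, although hg18 is the listed build. limma-trend (limma 3.58.1, R 4.3.3) was run on log2(FPKM + 1) for the 12866 genes with a mean of at least 1 FPKM, with no covariate and Benjamini-Hochberg adjustment over all of them at 0.05. limma-voom was run on the recovered fragments of 15112 genes with a mean of at least 10, and it called 16 genes. It was scaled by the totals the deposited values imply. In shNME7 2 this implied total, 16984433, was under the 16991397 recovered fragments, so the deposited scale is not a plain library total. The GC and length trend was a loess fit per library (span 0.3). The plan had foreseen a count test only for files of counts. Both tests were tested on simulated data with 200 changed genes.

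Members, lists and tests were chosen with earlier results of these data known. All members were named whatever their values. Of the other pathway lists, genes past the threshold in either test were named, or else the 3 with the largest absolute difference and at least 5 FPKM in the higher group. Alternatives were a pseudocount of 0.1, no filter, a replicate block, each library left out, limma-voom, and removal of the GC and length trend. Precision is limited by 2 libraries per group, since 2 against 2 cannot give an exact two-sided permutation p below 0.333. Promoters are from a set of RefSeq starts (GRCh38.p14). LOXL2, VEGFA, VHL, BNIP3L, NDRG1 and ANKZF1 had no entry in that set, which says nothing of RefSeq as a whole. Limits from a count of 0 cover counting error alone, and no label names molecular identifiers that would mark PCR duplicates.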

Additional observations from a re-analysis of the deposited data

How the results depend on the processing

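The number of members called was 0 in limma-trend and in each alternative listed in the methods that kept all libraries, and 0 to 1 with 1 library left out in limma-trend (0 to 2 in limma-voom). limma-voom scaled by library totals called 1 member. The calls over all genes, 0 in limma-trend, were 1 after the GC and length trend was removed, 16 in limma-voom, 13 in limma-voom with the trend removed, 20 with library totals, 122 with the replicate block, and 112 to 632 with 1 library left out in limma-trend. In limma-voom, tried after seeing the data, they were 39 without shCtrl 1, 28 without shCtrl 2, 430 without shNME7 1 and 41 without shNME7 2. A library left alone in its group is assumed to vary like the other group. The median difference of the members, -0.16, ran from -0.256 to -0.0752 with 1 library left out.

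The difference of replicates 1 and 2 correlated at r = -0.35 between the groups, over 12866 genes and without removal of the GC trend. Dependence on GC content ran in opposite order by replicate number (rho 0.26 and -0.63 in shCtrl 1 and 2, -0.38 and 0.67 in shNME7 1 and 2). The correlation therefore cannot tell whether the replicate numbers pair the libraries. With the replicate number as a block 0 members were called, and with the block and the GC and length trend removed 0. A crossed pairing, chosen after seeing the data, called 0 genes.

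NME7 was lower in every alternative run. It was -1.47 in limma-trend (not past the threshold). It also did not pass with a pseudocount of 0.1 (-2.24, adjusted p 0.459), without the filter (-1.47, 0.562), after removal of the GC and length trend (-1.36, 0.153), or with that removal and the replicate block (-1.36, 0.269). It passed at -1.47 with the replicate block, -2.39 in limma-voom, -2.25 in limma-voom with the trend removed, -2.39 with library totals, and -1.56 to -1.38 with 1 library left out in limma-trend. In limma-voom it was -2.44 without shCtrl 1, -2.33 without shCtrl 2, -2.59 without shNME7 1 and -2.17 without shNME7 2.

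Of the 30 tested members 16 kept their sign in all 11 alternatives listed in the methods. After removal of the GC and length trend, and likewise with the replicate block added, the sign changed for HIF1A (0.0765), P4HA2 (0.00911), PLOD1 (-0.0731) and KDM4B (-0.0369). In limma-voom after that removal it changed for HIF1A (0.11), P4HA2 (0.00965), PLOD1 (-0.11), KDM4B (-0.10), BNIP3 (0.000618), PLOD2 (0.0157), LOXL2 (-0.00490) and ERO1A (0.00279). With 1 library left out the sign changed for 13 members. Ranges were -0.28 to 0.24 for HIF1A, -0.0642 to 0.14 for HIF1AN, -0.28 to 0.14 for ANGPTL4, -0.16 to 0.0705 for ANKZF1, -0.11 to 0.11 for BNIP3, -0.52 to 0.0885 for BNIP3L, -0.19 to 0.0649 for CA9, -0.27 to 0.0181 for ERO1A, -0.13 to 0.19 for KDM4B, -0.37 to 0.0587 for MXI1, -0.0786 to 0.0366 for P4HA2, -0.15 to 0.18 for PLOD1 and -0.32 to 0.0441 for PLOD2. The cause of these changes was not tested. Few fragments limit the precision for ANKRD37 (68 to 111 per library), EGLN2, CA12 and BHLHE41. The part of shared-exon counting in the low EGLN2 level was not tested.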
